A study of Homo sapiens with 12 samples.

Results

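The report describes 4 of the 12 RNA sequencing libraries of the study, those of H2023 cells transfected with siRNA against NRF2 or with control siRNA, and follows the changes across genes that both NRF2 siRNAs share. H2023 is an established human lung adenocarcinoma cell line that carries a KEAP1 mutation. All 4 libraries came from cells grown in low-glucose DMEM with serum and harvested 48 h after transfection. The control siRNA group holds 2 libraries, numbered 0 and 1, which the study's methods describe as biological duplicates. The NRF2 siRNA group also holds 2 libraries, but each was made with a different siRNA (siRNA 28 and siRNA 30), so the spread in that group contains the difference between the siRNAs as well as the difference between cultures. The other 8 libraries hold the same comparison in A549 and H460 cells, 4 libraries per line, and are used here only to ask where the response of H2023 differs. A549 cells were grown in high-glucose DMEM, and their libraries were depleted of ribosomal RNA. The libraries of H2023 and H460 were polyA-selected.

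NRF2, encoded by NFE2L2, is a transcription factor that controls the cell's defence against oxidants and electrophiles. In unstressed cells KEAP1, an adaptor of the CUL3 ubiquitin ligase, binds NRF2 and has it degraded. Where KEAP1 is mutated, as in many lung adenocarcinomas, NRF2 accumulates, pairs with a small MAF protein (MAFF, MAFG or MAFK) and binds antioxidant response elements (AREs) near genes for glutathione and thioredoxin metabolism, quinone reduction, drug conjugation and efflux, NADPH supply and iron storage. The comparison asks which transcripts of a KEAP1-mutant cell line depend on NRF2.

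Levels are given as FPKM, counts of sequenced fragments divided by the length of the transcript and scaled to the total of mapped fragments, so that a level can be compared between genes of different length. Changes are differences of log2(FPKM + 1), NRF2 siRNA minus control siRNA, a scale that understates the change of genes near 1 FPKM. A gene is said to have fallen or risen where limma's moderated test gave a Benjamini-Hochberg adjusted p under 0.05 over the 14059 genes that reached 1 FPKM in at least 2 of the 4 libraries. The files hold no read counts, so the depth is unknown in absolute terms. Steps between low values place the other 3 libraries at 92.6%, 97.2% and 100.1% of the depth of control library 0. Between 13569 and 13909 genes reached 1 FPKM in each library, and mitochondrial transcripts held 11.97% and 18.1% of the summed FPKM in the control libraries and 17.3% and 22.8% with siRNA 28 and siRNA 30. As in any bulk sample, fewer cells of a kind and less RNA per cell cannot be told apart.

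The cells carried the simple-epithelial part of the adenocarcinoma marker list. KRT7, KRT8, KRT18, KRT19, MUC1, EPCAM and CDH1 were expressed, whereas the defining lung markers NKX2-1, SFTPB, SFTPC and SFTA2 were at or below 0.295 FPKM in every library and NAPSA reached 1.25 FPKM in 1 of them. The summed level of the 12 markers was 3416 and 2832 FPKM in the control libraries and 6366 and 6047 FPKM with siRNA 28 and siRNA 30. Almost all of each sum came from the keratins KRT7, KRT8, KRT18 and KRT19. Squamous markers summed to between 1.27 and 1.90 FPKM, neuroendocrine markers to between 3.39 and 6.52 FPKM, fibroblast markers to between 2.28 and 9.34 FPKM, and the 3 endothelial markers in the files to at most 0.181 FPKM. Immune markers summed to between 44.2 and 59.1 FPKM, almost all of it CD68, and PTPRC, the marker that all leukocytes share, was at or below 0.470 FPKM in every library.

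Among the genes described below, those that fell include several with an ARE core in the bases around their transcription start, and those that rose include several with the core element of TEAD factors. The ARE core was searched as TGACNNNGC and the TEAD core as GGAATG, each on both strands, from 250 bases before to 50 bases after the RefSeq start (GRCh38.p14 windows). The promoter table held 55 of the 82 genes that fell and 29 of the 46 that rose. The ARE core was present in 12 of these promoters of genes that fell (21.8%), in 13.8% of those of genes that rose, in 15.4% of those of all genes tested and in 13.6% of all 27305 promoters in the table. An ARE core whose middle letters are TCA also contains the AP-1 site TGACTCA, and that site was present in 9.09% of promoters of genes that fell, in 6.9% of those of genes that rose, in 2.93% of those of genes tested and in 4.92% of all promoters. The TEAD core was present in 17.2% of promoters of genes that rose, in 10.9% of those of genes that fell, in 10.6% of those of genes tested and in 3836 of all 27305 promoters. A match describes letters in a window and does not show binding.

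The ARE windows below belong to genes that fell and are in the gene lists or among the most changed, and they show where the core lies in each. Each is printed 5′ to 3′ on the strand of the gene, with the core in capitals, its 10 neighbouring bases on each side in lower case and its position in GRCh37, which was found by matching the letters to the GRCh37 genome. A core that lies on the opposite strand appears here in reverse complement, starting with GC and ending with GTCA.
TXNRD1, chr12:104609448-104609476, plus strand, core starting 99 bases before the start: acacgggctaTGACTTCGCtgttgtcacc
GCLM, chr1:94375002-94375030, minus strand, core starting 34 bases before the start: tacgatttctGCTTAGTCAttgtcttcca
GPX2, chr14:65409567-65409595, minus strand, core starting 122 bases before the start: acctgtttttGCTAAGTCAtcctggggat
ME1, chr6:84140889-84140917, minus strand, core starting 137 bases before the start: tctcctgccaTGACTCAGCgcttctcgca
PGD, chr1:10458910-10458938, plus strand, core starting 201 bases before the start: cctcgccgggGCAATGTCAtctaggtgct
CBR1, chr21:37442153-37442181, plus strand, core starting 159 bases before the start: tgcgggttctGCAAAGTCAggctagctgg
CYP4F11, chr19:16045815-16045843, minus strand, core starting 156 bases before the start: ctgtgcccatGCTGTGTCAccctgagctg
ABCB6, chr2:220083814-220083842, minus strand, core starting 152 bases before the start: cctgggcacgTGACCAAGCcggctctgct
The ME1 core shown contains the AP-1 site, and the other 7 do not. TXNRD1 and ME1 each held a further ARE core near the start, which is not shown. The count of 12 includes LINC00942, which RefSeq places on the plus strand and the GRCh37 annotation on the minus strand, so its window is not shown.

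The TEAD windows are shown for the genes of the same lists that rose. ANKRD1 and NUAK2 each held 2 cores, and DKK1, one of the 12 genes that rose the most, held 1.
ANKRD1 distal core, chr10:92681049-92681074, minus strand, 220 bases before the start: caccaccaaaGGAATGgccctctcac
ANKRD1 proximal core, chr10:92680957-92680982, minus strand, 128 bases before the start: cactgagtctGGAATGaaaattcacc
NUAK2 proximal core, chr1:205290876-205290901, minus strand, 18 bases before the start: ataacaacttGGAATGctgtgcttta
NUAK2 distal core, read on the opposite strand as CATTCC, chr1:205291055-205291080, minus strand, 197 bases before the start: ccctagtcccCATTCCtggtgggcgg
DKK1, chr10:54073981-54074006, plus strand, 50 bases before the start: ccaaggggccGGAATGctccgggccc

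The targeted gene was lower in both NRF2 siRNA libraries. NFE2L2 (ENSG00000116044, chr2:178083395-178257484 in GRCh37) was at 120.0 and 118 FPKM in the control libraries and at 7.74 and 6.80 FPKM with siRNA 28 and siRNA 30. The groups did not overlap, the mean control level was 16.4 times the mean with NRF2 siRNA, and the change of NFE2L2 of -3.86 (SE 0.16) had an adjusted p of 0.00529 by limma. The difference of NFE2L2 from the control mean was -3.78 with siRNA 28 and -3.95 with siRNA 30.

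Across all genes tested, 82 fell (0.583%) and 46 rose (0.327%). At an unadjusted p under 0.05 there were 939 lower and 1439 higher genes. In all 82 genes that fell both NRF2 siRNA libraries lay below both control libraries, as they did in 3092 of all genes tested (22%), and in all 46 that rose they lay above, as in 3799 of all genes tested (27%). The 82 genes included 66 protein-coding genes and the 46 included 37, with 5 small nucleolar RNAs among those that rose. The genes that fell held 6.41% and 5.16% of the summed FPKM in the control libraries and 0.765% and 0.806% with siRNA 28 and siRNA 30. The count of calls moved with each library. Without control library 0 limma called 0 genes (361 lower and 611 higher at an unadjusted p under 0.05) and without control library 1 also 0 (422 and 586). Without siRNA 28 it called 585 lower and 488 higher genes, and without siRNA 30 478 and 561. Of the 128 calls, 14 had an adjusted p of 0.04998.

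Taken separately, siRNA 28 and siRNA 30 gave 204 genes at least 2-fold lower with both (1.45%) and 256 at least 2-fold higher with both (1.82%), on the log2(FPKM + 1) scale. All 128 called genes met this rule. A further 246 genes were at least 2-fold lower with siRNA 28 only and 358 with siRNA 30 only. The corresponding numbers of higher genes were 431 and 343, and 10 genes moved at least 2-fold in opposite directions. Of the 82 genes that fell, 28 were lowered more by siRNA 28 and 52 more by siRNA 30, and in the remaining 2 both NRF2 siRNA libraries were listed at 0. Of the 46 that rose, 18 were raised more by siRNA 28 and 28 by siRNA 30.

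**Figure D1:**
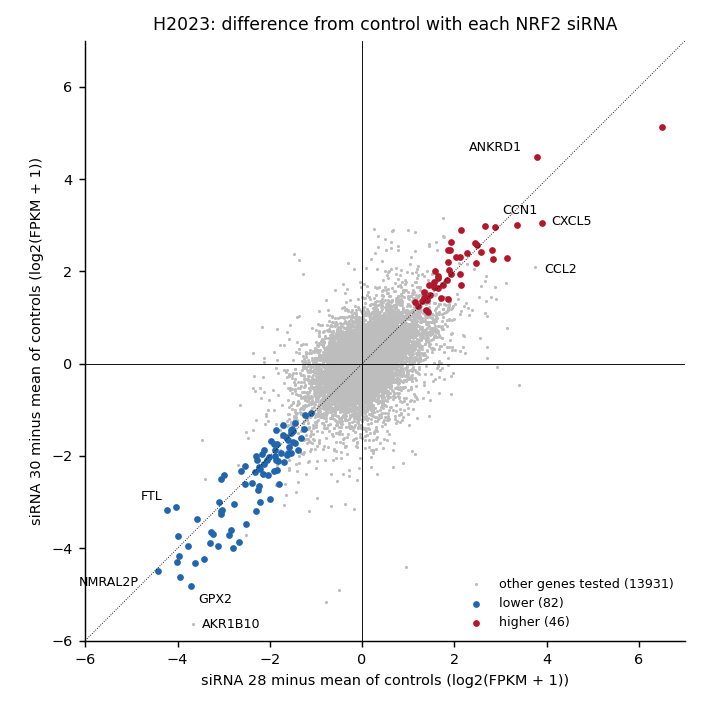
Difference from the mean of the 2 control libraries with siRNA 28 (horizontal axis) and siRNA 30 (vertical axis), both in log2(FPKM + 1), for the 14059 genes tested; blue points are the 82 genes that fell, red points the 46 that rose and grey points all others, and the dotted line marks equal change. The called genes lie along the line in the lower left and upper right, whereas AKR1B10 and CCL2 lie off it and did not pass.

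The 12 genes that fell the most included NFE2L2 and were led by NMRAL2P, a transcribed pseudogene related to the NADPH sensor NMRAL1. NMRAL2P was at 59.0 and 67.5 FPKM in the control libraries and at 1.99 and 1.84 FPKM with siRNA 28 and siRNA 30, a change of -4.46 (SE 0.19, adjusted p = 0.00529). CPLX2, which encodes a complexin that binds the SNARE complex in exocytosis, was at 256 and 178 against 12.9 and 7.70 FPKM and changed by -4.29 (SE 0.30, adjusted p = 0.0128). CPLX2 was not called in a fit of all 12 libraries. GPX2, a glutathione peroxidase of epithelial cells whose ARE core is printed above, was at 712 and 469 against 43.5 and 19.4 FPKM and changed by -4.26 (SE 0.41, adjusted p = 0.0280). In all 3 genes the higher NRF2 siRNA library lay far below the lower control library. NR0B1, which encodes the orphan nuclear receptor DAX1, changed by -4.16 (SE 0.21, adjusted p = 0.00578), from 53.4 and 47.2 to 2.18 and 1.59 FPKM. OSGIN1, an oxidative stress-induced growth inhibitor, changed by -4.07 (SE 0.19, adjusted p = 0.00529), from 198 and 159 to 10.5 and 8.85 FPKM. LINC00942, a long non-coding RNA, changed by -3.85 (SE 0.18, adjusted p = 0.00529), from 137 and 121 to 7.22 and 8.81 FPKM. The other 5 genes of this group, CYP4F3, CYP4F11, FTL, FTLP3 and ENSG00000267056, are described with their families.

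Glutathione is built from cysteine, glutamate and glycine and reduced again at the cost of NADPH. Of the 10 genes of the glutathione list tested, 4 fell and 0 rose, where 0.583% of all genes tested fell and 0.327% rose, with a median change of -1.38 beside 0.02 over all genes tested. Some genes stand in more than 1 list. All lists were chosen with earlier results of these data known, so their counts and medians are not independent evidence. GCLC and GCLM form the catalytic and modifier subunits of glutamate-cysteine ligase, the rate-limiting enzyme of the pathway. GCLC was at 211 and 192 FPKM in the control libraries and at 41.9 and 31.4 FPKM with NRF2 siRNA (change -2.44, SE 0.19, adjusted p = 0.0169), and GCLM was at 90.1 and 76.4 against 9.01 and 8.16 FPKM (change -3.13, SE 0.18, adjusted p = 0.00713). The change of GCLM was the larger with both siRNAs, and the difference between the subunits was not tested. GSR, which reduces oxidised glutathione, was at 487 and 458 against 108 and 128 FPKM (change -2.001, SE 0.16, adjusted p = 0.0187). SLC7A11, the cystine importer, was at 27.7 and 26.4 against 7.89 and 2.91 FPKM and did not pass (change -2.25, SE 0.40, adjusted p = 0.0950). Its change was -1.66 with siRNA 28 and -2.84 with siRNA 30. GSS, which joins glycine in the final step, was at 38.6 and 33.2 against 41.4 and 35.1 FPKM, and the groups overlapped. The gamma-glutamyl transferase family genes GGT1 and GGT5 lay above both controls. GGT1 was at 47.6 and 35.8 against 93.1 and 70.4 FPKM and did not pass (change 0.96, adjusted p = 0.145). GGT5 was at 0.686 and 0.894 against 5.63 and 2.44 FPKM and entered the test only through the NRF2 siRNA libraries.

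Thioredoxin carries electrons from NADPH to peroxiredoxins and other proteins. Of the 13 genes of this list tested, 3 fell, where 0.583% of all genes did, and 0 rose, and the median was 0.05. TXNRD1, the cytosolic thioredoxin reductase, was at 699 and 698 FPKM in the control libraries and at 80.8 and 86.9 FPKM with NRF2 siRNA (change -3.04, SE 0.15, adjusted p = 0.00529). SRXN1, sulfiredoxin, which repairs over-oxidised peroxiredoxins, was at 423 and 375 against 41.6 and 29.9 FPKM (change -3.46, SE 0.21, adjusted p = 0.00805). TXN, thioredoxin itself, was at 864 and 747 against 184 and 178 FPKM (change -2.15, SE 0.16, adjusted p = 0.0151). PRDX1, the abundant cytosolic peroxiredoxin, was at 947 and 851 against 372 and 471 FPKM, with an adjusted p of 0.0878. TXNRD2, the mitochondrial reductase, lay above its controls, at 7.02 and 8.69 against 16.5 and 20.5 FPKM, and did not pass (adjusted p = 0.106).

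Quinone, carbonyl and aldo-keto reductases detoxify reactive carbonyls and quinones with NADPH or NADH, and their list had the lowest median of the 21 (-1.75). Of 16 genes tested, 8 fell and 0 rose, where 0.583% of all genes fell, and 12 lay below both controls in both NRF2 siRNA libraries, where 22% of all genes did. NQO1, NAD(P)H quinone dehydrogenase, was at 1059.6 and 876 against 115 and 101 FPKM (change -3.15, SE 0.18, adjusted p = 0.00713). PTGR1, prostaglandin reductase, was at 751 and 654 against 101 and 84.1 FPKM (change -2.91, SE 0.18, adjusted p = 0.00805). CBR1 and CBR3, the carbonyl reductases, changed by -1.69 (SE 0.17, adjusted p = 0.0298) and -2.22 (SE 0.25, adjusted p = 0.0336), and NQO2 changed by -1.17 (SE 0.15) with an adjusted p at the limit (0.04998). AKR1C1 and AKR1C2, hydroxysteroid dehydrogenases, were at 1382 and 1252 FPKM and at 2093 and 1794 FPKM in the control libraries. With siRNA 28 and siRNA 30, AKR1C1 was at 229.7 and 118 FPKM and AKR1C2 at 391 and 211 FPKM, with changes of -2.99 and -2.75 (SE 0.33 and 0.32, adjusted p = 0.0336 and 0.0355).

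AKR1B10, a retinal and aldehyde reductase, had the most negative change of all genes tested and did not pass. AKR1B10 was at 2219.5 and 1535 FPKM in the control libraries and at 145 and 35.7 FPKM with siRNA 28 and siRNA 30, a change of -4.66 (SE 0.64, adjusted p = 0.0556). The change of AKR1B10 was -3.66 with siRNA 28 and -5.65 with siRNA 30. Its paralogue AKR1B15 changed by -3.54 (SE 0.33, adjusted p = 0.0255) and the pseudogene AKR1B10P1, chosen after its values were seen, by -3.22 (SE 0.36, adjusted p = 0.0337). Members of the AKR1B and AKR1C families with their pseudogenes, and the pairs of CYP4F3 and CYP4F11, FTL and FTLP3, TRIM16 and TRIM16L, and CES1 and CES1P1, are similar in sequence, and how the authors shared reads between them is not given in the sources used here, so their single values are uncertain. The long non-coding RNA ENSG00000261602, also chosen after its values were seen, was at 214 and 202 against 16.4 and 19.2 FPKM. It lies inside NQO1 on the opposite strand (chr16:69743777-69744486 in GRCh37), and whether reads were assigned by strand is not given in the sources used here, so its reads cannot be told apart from those of NQO1. LRP8 and GCLC, too, overlap non-coding genes.

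Conjugating and oxidising enzymes and efflux pumps follow the reductases in drug and lipid metabolism. Of 24 genes tested, 6 fell, where 0.583% of all genes did, and 0 rose, with a median change of -1.04. CYP4F3 and CYP4F11, which hydroxylate fatty acids and eicosanoids, were at 45.5 and 35.8 against 2.35 and 1.08 FPKM and at 119 and 112 against 9.76 and 5.18 FPKM, with changes of -3.97 and -3.83 (SE 0.30 and 0.29, both with an adjusted p of 0.0151). The processed pseudogene ENSG00000267056 beside CYP4F11 changed by -3.59 (SE 0.26, adjusted p = 0.0147). ALDH3A1, an aldehyde dehydrogenase, was at 164 and 223 against 21.9 and 32.8 FPKM (change -2.79, SE 0.26, adjusted p = 0.0256), and UGDH, which makes UDP-glucuronate for glucuronidation, was at 555 and 535 against 87.4 and 109 FPKM (change -2.47, SE 0.17, adjusted p = 0.0128). Among the transporters, ABCC2 (MRP2) changed by -1.59 (SE 0.18, adjusted p = 0.0348) and ABCB6, a porphyrin transporter, by -1.83 (SE 0.19, adjusted p = 0.0302). ABCC1 (MRP1) was at 60.9 and 64.0 against 9.19 and 33.2 FPKM, lower with siRNA 28 than with siRNA 30, and did not pass (adjusted p = 0.217). MGST1 and EPHX1, a microsomal glutathione transferase and the microsomal epoxide hydrolase, were both just short of the threshold, with adjusted p = 0.0556 and changes of -1.26 and -1.92. The glutathione transferases GSTM3 and GSTM4 changed by -0.16 and -0.25 and did not pass.

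NADPH, which the reductases above consume, comes largely from the pentose phosphate pathway and malic enzyme. Of 15 genes tested, 4 fell, where 0.583% of all genes did, and 0 rose, and the list's median was -0.33. PGD, which carries out an NADPH-forming step of that pathway, was at 2180.4 and 1591 against 515 and 378 FPKM (change -2.07, SE 0.25, adjusted p = 0.0417), and TALDO1, transaldolase, was at 363 and 326 against 105 and 136 FPKM (change -1.52, SE 0.19, adjusted p = 0.0449). ME1, cytosolic malic enzyme, was at 108 and 89.5 against 23.8 and 12.1 FPKM, with an adjusted p of 0.04998. TKT, transketolase, was at 888 and 900.2 against 344 and 202 FPKM and did not pass (adjusted p = 0.0728). Of the mitochondrial malic enzymes, ME2 was at 33.4 and 39.9 against 35.0 and 33.8 FPKM, with overlapping groups. ME3 was at 4.63 and 7.04 against 7.91 and 11.2 FPKM, above both controls, and did not pass (adjusted p = 0.341).

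Ferritin stores iron in a shell of light and heavy chains. FTL, the light chain, was the gene with the highest level among those that fell, at 22785 and 17475 FPKM in the control libraries and at 1227 and 2303 FPKM with siRNA 28 and siRNA 30 (change -3.57, SE 0.36, adjusted p = 0.0298). FTH1, the heavy chain, was at 7714 and 8790.2 against 1906 and 3319.6 FPKM, also lower in both libraries, and did not pass (change -1.71, SE 0.32, adjusted p = 0.102). Together the 2 chains held 4.69% and 3.97% of the summed FPKM in the control libraries and 0.490% and 0.846% with NRF2 siRNA. The ferritin light chain pseudogene FTLP3 changed by -3.70 (SE 0.40, adjusted p = 0.0336). BLVRB, biliverdin reductase B, changed by -1.62 (SE 0.18, adjusted p = 0.0336), from 374 and 299.6 to 102 and 115 FPKM. HMOX1, heme oxygenase 1, was at 35.3 and 40.3 against 12.01 and 15.8 FPKM (adjusted p = 0.0634), and TFRC, the transferrin receptor that brings iron in, was at 116 and 84.7 against 109 and 83.6 FPKM. Of the 10 genes of the heme and iron list 2 fell, where 0.583% of all genes did, and 0 rose.

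A further list, chosen like the others with earlier results of these data known, holds other genes from NRF2 responses. Of 21 tested, 9 fell and 0 rose, where 0.583% of all genes fell, and 18 lay below both controls in both NRF2 siRNA libraries, where 22% of all genes did, with a median change of -1.62 beside 0.02 over all genes. Beside NMRAL2P, NR0B1 and OSGIN1, these included TRIM16 and TRIM16L (changes -2.27 and -3.46, adjusted p = 0.0238 and 0.00713). TRIM16 is a ubiquitin ligase family member, and TRIM16L is annotated as a transcribed pseudogene. The others were LRP8 (a lipoprotein and reelin receptor, change -2.15, adjusted p = 0.0256), SLC6A6 (the taurine transporter, change -1.60, adjusted p = 0.0355), RIT1 (a RAS-related GTPase, change -1.33, adjusted p = 0.0469) and MAFG. SPP1, osteopontin, was at 2186 and 2103 against 2429 and 1117 FPKM, above the controls with siRNA 28 and below them with siRNA 30.

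Partners and regulators of NRF2 were mixed. Of 21 genes tested, 3 fell, where 0.583% of all genes did, and the median was -0.17. The 3 were MAFG, CEBPB and NFE2L2, the target of the siRNAs. MAFG, a small MAF partner, was at 34.0 and 38.0 against 9.08 and 12.7 FPKM (change -1.65, SE 0.22, adjusted p = 0.04998), whereas MAFF and MAFK had overlapping groups. CEBPB, a basic leucine zipper factor that the study examined at enhancers bound by NRF2, was at 128 and 136 against 49.9 and 35.3 FPKM (change -1.63, SE 0.21, adjusted p = 0.0474). KEAP1 itself was at 106 and 93.3 against 35.9 and 45.8 FPKM and did not pass (change -1.27, SE 0.19, adjusted p = 0.0622). SQSTM1 (p62), which binds KEAP1, was at 897 and 708 against 265 and 161 FPKM (adjusted p = 0.0608), and BACH1, a repressor at AREs, was at 19.97 and 19.5 against 9.26 and 7.62 FPKM (adjusted p = 0.0840). FOSL2, an AP-1 subunit, lay above its controls, at 26.9 and 37.5 against 69.7 and 72.0 FPKM (adjusted p = 0.0989). The related factor NFE2L1 was at 219 and 255 against 263 and 292 FPKM and CUL3 at 32.7 and 30.2 against 29.9 and 21.8 FPKM, with adjusted p = 0.537 and 0.541.

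**Figure D2:**
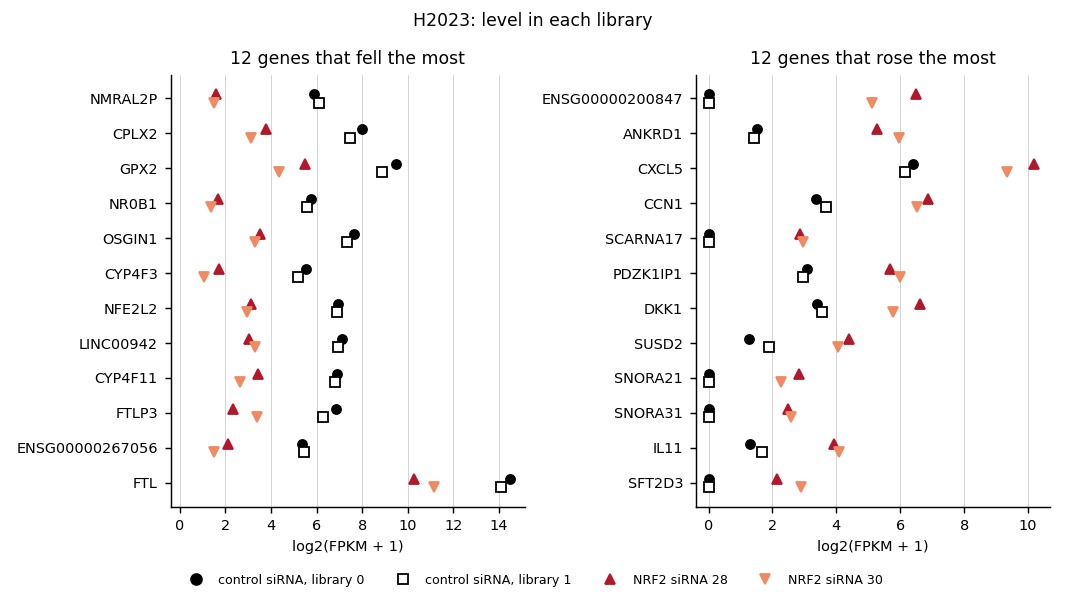
Level in each of the 4 H2023 libraries, in log2(FPKM + 1), of the 12 genes with the most negative change (left) and the 12 with the most positive change (right) among those past the threshold; black circles and open squares are control libraries 0 and 1, and triangles pointing up and down are siRNA 28 and siRNA 30. In each gene the NRF2 siRNA libraries sit apart from both control libraries, and 5 of the genes on the right sit at or near 0 in the controls.

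A list of 30 genes was taken from the effector genes that the study chose partly on these libraries. It is shorter than the study's own set, and the direction of its members here is not independent evidence. All 30 lay below both controls in both NRF2 siRNA libraries, where 22% of all genes did, with changes from -3.39 to -0.64 and a median of -1.06. After adjustment 4 passed, where 0.583% of all genes fell. F2RL2, a protease-activated receptor, was at 58.8 and 50.3 against 6.94 and 2.501 FPKM (change -3.39, SE 0.40, adjusted p = 0.0395). AHCYL2, related to S-adenosylhomocysteine hydrolase, changed by -2.496 (SE 0.23, adjusted p = 0.0256) and SLC25A43, a mitochondrial carrier, by -1.84 (SE 0.21, adjusted p = 0.0355).

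NOTCH3, a receptor of the Notch pathway and one of the 30, was at 134 and 116 FPKM in the control libraries and at 38.7 and 19.7 FPKM with siRNA 28 and siRNA 30. The groups did not overlap, and the change of -2.13 (SE 0.33) had an adjusted p of 0.0695. NOTCH3 is also 1 of the Notch list. Of 17 genes tested 0 passed in either direction, and the median was -0.02. At an unadjusted p under 0.05 there were 2 lower and 0 higher genes, beside 939 and 1439 of all 14059. NOTCH1 was at 8.80 and 9.82 against 3.95 and 6.13 FPKM (adjusted p = 0.229), NOTCH2 at 14.6 and 17.9 against 15.8 and 20.5 FPKM, and the target gene HES1 at 14.3 and 11.3 against 24.2 and 13.9 FPKM. HEY1, another target, was at 1.54 and 3.12 against 0.533 and 1.44 FPKM. It entered the test only through the controls, so no p is given for it.

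**Figure D3:**
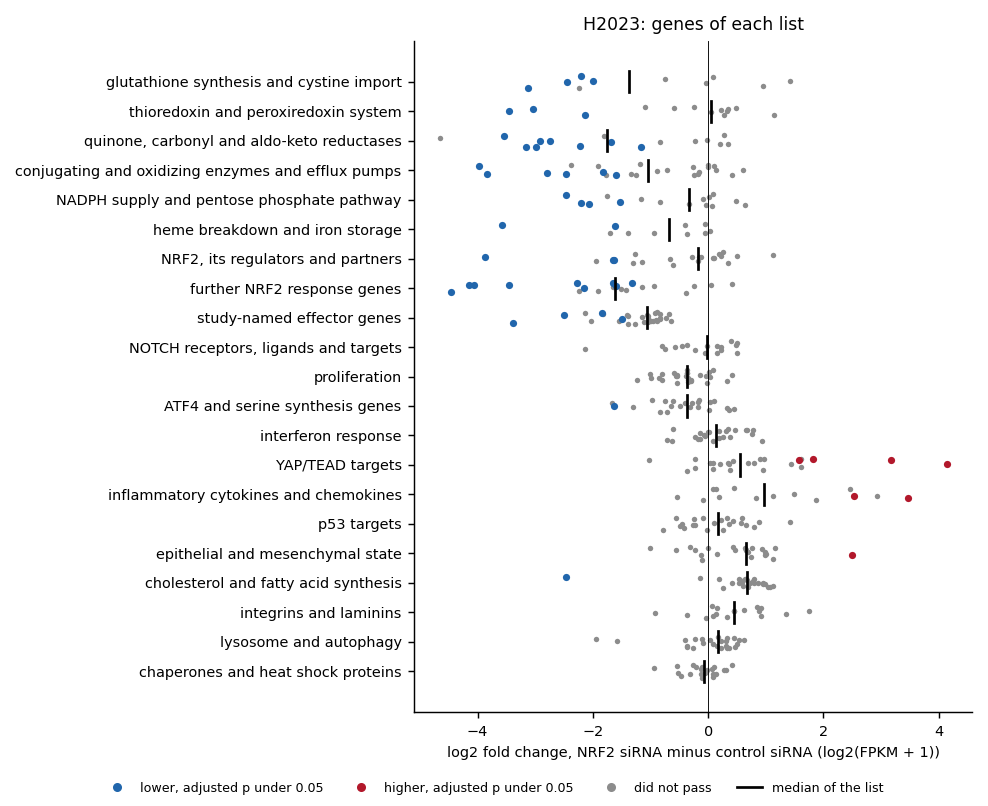
Log2 fold change in H2023, NRF2 siRNA minus control siRNA on the log2(FPKM + 1) scale, of every tested gene of the 21 lists; each point is a gene, blue or red where it passed the threshold, and the black bar is the median of the list. Blue points crowd the NRF2-related lists at the top, down to -4.46 for NMRAL2P, and red points appear in the YAP/TEAD, cytokine and epithelial lists.

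Genes of the YAP/TEAD list gave 4 of the 46 genes that rose, from 24 tested, where 0.327% of all genes tested rose. YAP and TAZ are co-activators that enter the nucleus when Hippo signalling is low and act through TEAD factors. ANKRD1, a classic target, was at 1.88 and 1.70 FPKM in the control libraries and at 37.9 and 61.5 FPKM with siRNA 28 and siRNA 30, 27.8 times the control mean (change 4.14, SE 0.28, adjusted p = 0.0125). CCN1, a matricellular protein, was at 9.38 and 11.7 against 117 and 91.1 FPKM (change 3.18, SE 0.21, adjusted p = 0.0114). AMOTL2, an angiomotin that binds YAP, was at 20.9 and 20.02 against 75.4 and 74.7 FPKM (change 1.82, SE 0.15, adjusted p = 0.0203). NUAK2, a kinase of the AMPK family, was at 3.93 and 3.91 against 12.4 and 14.9 FPKM (change 1.57, SE 0.21, adjusted p = 0.04998). In all 4 genes both NRF2 siRNA libraries lay above both control libraries. Of the 24 genes tested, 15 lay above both controls, where 27% of all genes did, and the median was 0.56 beside 0.02 over all genes tested. Higher than the control mean with both siRNAs were 17, a count without a share over all genes.

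Other members of the list did not pass. CCN2, a relative of CCN1, was at 3.29 and 2.84 against 16.8 and 7.58 FPKM (adjusted p = 0.145), AJUBA at 5.50 and 5.96 against 15.4 and 24.7 FPKM (adjusted p = 0.0835) and AXL at 22.8 and 27.1 against 45.4 and 104 FPKM (adjusted p = 0.181). The co-activator genes themselves differed, with YAP1 at 24.6 and 22.4 against 33.5 and 21.9 FPKM and WWTR1, which encodes TAZ, at 43.9 and 52.98 against 96.0 and 86.8 FPKM (adjusted p = 0.104). FOXF2 went the other way, at 10.4 and 10.0 against 3.45 and 5.82 FPKM (adjusted p = 0.171).

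Of the 14 cytokines and chemokines tested, 2 rose, where 0.327% of all genes did, and 0 fell. CXCL5, a neutrophil-attracting chemokine, was at 84.3 and 70.7 FPKM in the control libraries and at 1167 and 643 FPKM with siRNA 28 and siRNA 30 (change 3.47, SE 0.31, adjusted p = 0.0238). IL11, a cytokine of the IL6 family, was at 1.46 and 2.18 against 14.3 and 16.01 FPKM (change 2.53, SE 0.23, adjusted p = 0.0256). The medians of the list were 1.79 with siRNA 28 and 0.29 with siRNA 30, beside 0.02 and 0.04 over all genes tested. Of the 14 genes, 11 were higher in the siRNA 28 library than in the siRNA 30 library, and the share over all genes was not counted. CCL2, a monocyte-attracting chemokine, was at 17.5 and 25.6 against 298 and 93.5 FPKM (change 2.92, SE 0.55, adjusted p = 0.103), and CXCL8, another neutrophil-attracting chemokine, at 8.73 and 15.7 against 82.7 and 25.0 FPKM (adjusted p = 0.217). IL32 had its highest level with siRNA 30, at 2.56 and 3.41 against 12.3 and 34.4 FPKM (adjusted p = 0.109).

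CDH1, E-cadherin, was the only one of 23 epithelial and mesenchymal genes tested to pass in the fit of the 4 libraries. It was at 12.6 and 8.05 FPKM in the control libraries and at 65.0 and 58.3 FPKM with NRF2 siRNA (change 2.497, SE 0.24, adjusted p = 0.0280). Over all genes tested 0.327% rose and 0.583% fell. Of the 23 genes, 9 lay above both controls, where 27% of all genes did, and 2 lay below, where 22% did. The list's median was 0.66, beside 0.02 over all genes tested. The simple-epithelial keratins KRT8 and KRT18 lay above their controls, at 1474 and 1303 against 3101 and 2919 FPKM and at 878 and 712 against 1674 and 1475 FPKM, with adjusted p = 0.0819 and 0.109. CLDN7, a claudin, lay below its controls, at 6.96 and 3.46 against 2.74 and 3.34 FPKM. DSP, at 5.05 and 2.92 against 3.91 and 2.10 FPKM, and EPCAM, at 11.1 and 6.23 against 15.9 and 8.76 FPKM, had overlapping groups. Mesenchymal genes gave no common direction. VIM, vimentin, was at 347 and 495 against 208 and 693 FPKM, below the controls with siRNA 28 and above them with siRNA 30, and SNAI1, a repressor of CDH1, was at 9.88 and 16.9 against 4.79 and 7.41 FPKM (adjusted p = 0.235).

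In cholesterol and fatty acid synthesis no gene rose by limma. Of 25 genes tested 0 rose and 1, ME1, fell, while at an unadjusted p under 0.05 the list had 1 lower and 16 higher genes, where 1439 of all 14059 were higher. In the list 18 genes lay above both controls, where 27% of all genes did, and the median was 0.67. FDPS, farnesyl diphosphate synthase, was at 192 and 205 against 364 and 355 FPKM (adjusted p = 0.0877), HMGCS1 at 85.4 and 61.6 against 213 and 119 FPKM (adjusted p = 0.190) and SQLE, squalene epoxidase, at 56.6 and 40.0 against 123 and 79.6 FPKM (adjusted p = 0.175). The level was higher with siRNA 28 than with siRNA 30 in 23 of the 25 genes, a count without a share over all genes. The medians were 0.96 and 0.40, beside 0.02 and 0.04 over all genes tested. Integrins and laminins had a median of 0.44 and 0 of 17 passed. At an unadjusted p under 0.05 there were 1 lower and 9 higher genes, beside 939 and 1439 of all 14059. ITGB8 was at 0.521 and 1.06 against 6.53 and 3.67 FPKM and entered the test only through the NRF2 siRNA libraries, so no p is given for it. LAMA5 was at 48.3 and 60.2 against 99.8 and 105 FPKM (adjusted p = 0.106).

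The remaining genes of the 12 that rose the most came from several families. PDZK1IP1, a small membrane protein that binds the scaffold PDZK1, was at 7.51 and 6.71 against 50.01 and 63.2 FPKM (change 2.82, SE 0.20, adjusted p = 0.0128). DKK1, a secreted inhibitor of WNT signalling, was at 9.63 and 10.6 against 97.6 and 53.1 FPKM (change 2.72, SE 0.31, adjusted p = 0.0354). SUSD2, a sushi-domain membrane protein, was at 1.39 and 2.72 against 19.9 and 15.4 FPKM (change 2.63, SE 0.30, adjusted p = 0.0345). All 3 lay above both controls with both siRNAs, and DKK1 was highest with siRNA 28.

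The other genes of that group were near 0 in the control libraries and entered the test only through the NRF2 siRNA libraries, so a difference is built into their selection and no p is given for them. ENSG00000200847 (102 bases, annotated only as a miscellaneous RNA, chr7:23531411-23531512 in GRCh37) was listed at 0 in both control libraries and at 89.7 and 33.9 FPKM with siRNA 28 and siRNA 30. SCARNA17, a small Cajal body RNA that guides modification of spliceosomal RNA, was listed at 0 in both controls and at 6.32 and 6.76 FPKM with NRF2 siRNA. The small nucleolar RNAs SNORA21 and SNORA31 were likewise listed at 0 in both controls and at 6.15 and 3.81 FPKM and at 4.603 and 4.99 FPKM with NRF2 siRNA. SFT2D3 was at 7.47e-05 and 1.9e-05 FPKM in the controls and at 3.40 and 6.45 FPKM with NRF2 siRNA. A value of 0 in files without counts can be a failed estimate, so no fold is given for these genes. SNORA51 was the fifth gene among the 46 with a listing of 0 in both controls. For 2 of the 82 lower genes, TREML3P and ENSG00000229646, both NRF2 siRNA libraries were listed at 0, so that they entered the test only through the controls.

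In all, 41 genes that fell and 39 that rose stood in no list, and those named in the next sentences were chosen after their values were seen. Among the genes that fell, MAP2, a microtubule-associated protein, was at 47.9 and 48.5 against 5.02 and 4.43 FPKM (change -3.10, SE 0.18, adjusted p = 0.00713). NAMPT, the rate-limiting enzyme of NAD salvage, was at 803 and 781 against 169 and 98.9 FPKM (change -2.60, SE 0.27, adjusted p = 0.0317). NEIL3, a DNA glycosylase, was at 38.3 and 45.9 against 7.64 and 7.50 FPKM (change -2.33, SE 0.18, adjusted p = 0.0169). HPD, an enzyme of tyrosine breakdown, was at 224 and 167 against 40.7 and 38.8 FPKM (change -2.25, SE 0.19, adjusted p = 0.0213). SFN, stratifin of epithelial cells, and RAB10, a vesicle GTPase, changed by -1.83 and -1.63 (adjusted p = 0.0242 and 0.0280).

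Among the genes that rose outside the lists, PDCD4, an inhibitor of translation, was at 20.4 and 25.6 against 87.8 and 130.4 FPKM (change 2.18, SE 0.25, adjusted p = 0.0347). EFNA1, an ephrin ligand, was at 8.15 and 7.27 against 31.9 and 53.4 FPKM (change 2.28, SE 0.28, adjusted p = 0.0437), and DIO3, the deiodinase that inactivates thyroid hormone, at 1.65 and 2.01 against 14.6 and 11.7 FPKM (change 2.32, SE 0.23, adjusted p = 0.0285). TNFRSF12A, the receptor of TWEAK, was at 44.2 and 49.5 against 139.7 and 162 FPKM (change 1.67, SE 0.16, adjusted p = 0.0290). MT2A, a metallothionein, was at 62.1 and 88.6 against 236 and 233 FPKM (adjusted p = 0.0469), and C3, complement component 3, at 489 and 423 against 1661 and 1213 FPKM (adjusted p = 0.04998). TPM1, tropomyosin 1, was at 118 and 129 against 313 and 335 FPKM (adjusted p = 0.0336). FURIN, TFPI2, GALNT1 and KRT80 rose and MGAT5 and ID1 fell with an adjusted p of 0.04998.

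Proliferation genes separated the siRNAs. With siRNA 28 all 29 genes tested were lower than the control mean (median -0.83), and with siRNA 30 12 were lower and the median was 0.08. Over all genes tested the medians were 0.02 and 0.04, and the shares of lower genes were not counted. In the fit of both siRNAs 0 passed in either direction. At an unadjusted p under 0.05 the list had 7 lower and 0 higher genes, beside 939 and 1439 of all 14059. MCM6, a subunit of the replicative helicase, was at 32.4 and 28.8 FPKM in the control libraries, at 12.04 FPKM with siRNA 28 and at 34.2 FPKM with siRNA 30. PCNA, the sliding clamp of DNA polymerases, showed the same split, at 118 and 112 against 57.7 and 137 FPKM. The mitotic genes CCNB1, CCNB2 and AURKA were lower with both, at 79.8 and 92.1 against 35.7 and 49.1 FPKM, at 31.2 and 39.3 against 16.3 and 12.7 FPKM and at 65.1 and 73.4 against 38.3 and 40.2 FPKM (adjusted p = 0.117, 0.0901 and 0.109). With 1 library per siRNA, the difference between the siRNAs was not tested.

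**Figure D4:**
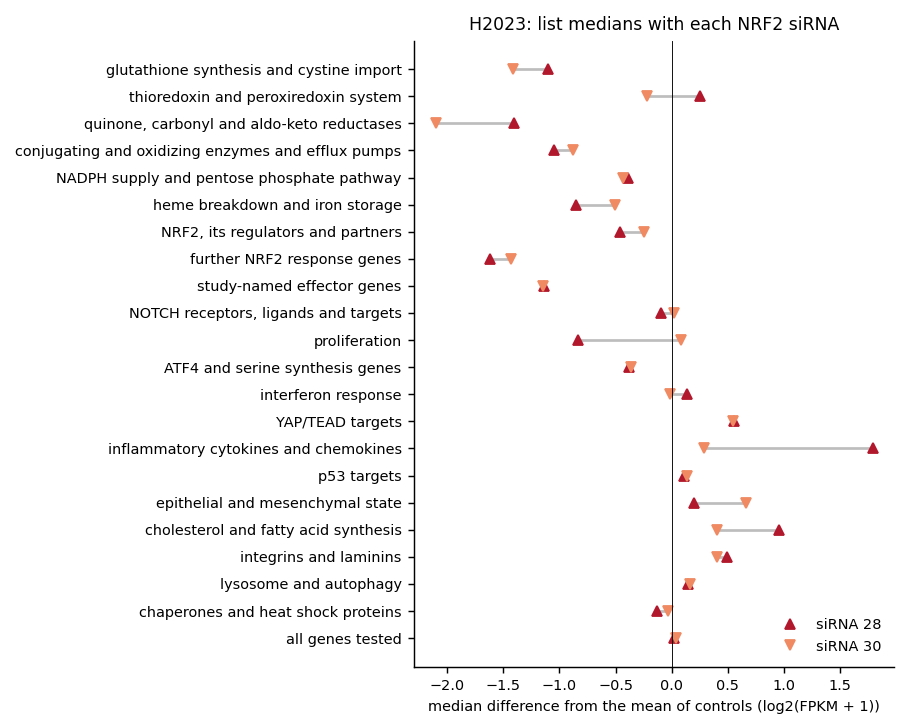
Median difference from the control mean, in log2(FPKM + 1), of each list and of all genes tested, with siRNA 28 (triangles pointing up) and siRNA 30 (triangles pointing down). The markers lie close together for most lists and farthest apart for cytokines and chemokines (1.79 and 0.29) and for proliferation (-0.83 and 0.08).

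The 5 remaining lists gave 1 call in all, where 0.583% of all genes tested fell and 0.327% rose. Among 22 ATF4 and serine synthesis genes CEBPB, already described, was the only one past the threshold, the median was -0.36, and CTH, which makes cysteine from cystathionine, was at 34.2 and 20.4 against 8.46 and 6.87 FPKM (adjusted p = 0.0886). None of the 24 interferon response genes, 22 p53 targets, 25 lysosome and autophagy genes or 22 chaperones tested passed by limma. At an unadjusted p under 0.05 these 4 lists had 2, 1, 3 and 2 lower and 3, 3, 1 and 0 higher genes, beside 939 and 1439 of all 14059. Their medians were 0.13, 0.17, 0.16 and -0.08. CDKN1A, which encodes p21, was at 17.4 and 31.8 against 11.9 and 32.4 FPKM, below the controls with siRNA 28 and not with siRNA 30. GLA, a lysosomal galactosidase, was at 82.3 and 77.6 against 21.2 and 31.9 FPKM (adjusted p = 0.0602).

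The response of H2023 was then set against the mean response of A549 and H460 in a fit of all 12 libraries. Of 11571 genes expressed in all 3 lines, limma called 3 (0.0259%), with a higher value in H2023 for each, and 1352 had an unadjusted p under 0.05. ANKRD1 changed by 4.14 in H2023 against 0.42 in A549 and 1.10 in H460 (difference 3.39, SE 0.32, adjusted p = 0.00454). CDC42EP1, an effector of the CDC42 GTPase, changed by 1.02 against 0.26 and -2.05 (difference 1.92, SE 0.23, adjusted p = 0.0241). It was at 21.5 and 21.7 FPKM in the H2023 control libraries and at 43.9 and 45.8 FPKM with NRF2 siRNA, and it did not pass within H2023 (adjusted p = 0.0693). For SCARNA17, the third gene, the files list 0 FPKM in both control libraries of H2023 and in both NRF2 siRNA libraries of H460, so in these lines it entered the test only through the other group and its call is not read as a difference. Its differences on the log2(FPKM + 1) scale were 2.91 in H2023, -0.19 in A549 and -2.59 in H460, and the difference between lines was 4.30, or 8.98 with a pseudocount of 0.1, so its size is set by the pseudocount. Against H460 alone the difference of ANKRD1 was 3.04 (adjusted p = 0.0735), and against A549 alone that of CDC42EP1 was 0.757 (adjusted p = 0.325). Without either control library of H2023, limma called 0 genes as different. The next genes by p, WNK2 and LCLAT1, had adjusted p = 0.0506 and 0.0566. The H2023 and H460 libraries were polyA-selected whereas the A549 libraries were depleted of ribosomal RNA. In A549 the cell line, this preparation and the high-glucose medium cannot be told apart, for ANKRD1 and CDC42EP1 as for SCARNA17. The part of each in the differences was not tested.

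Most of the genes that fell in H2023 had the same sign elsewhere. Of the 65 genes that fell and were expressed in all 3 lines, 63 had a negative change in both A549 and H460, and of the 30 that rose, 24 had a positive change in both. The lines do not share control samples, and these counts were not tested. The shares over all genes expressed in the 3 lines were not counted, so the counts have no background to be judged by. NFE2L2 changed by -2.24 in A549 and -3.60 in H460 against -3.86 in H2023. For GPX2, which reached at most 2.69 FPKM in H460, the values were -2.72 and 0.61 against -4.26, for CDH1 0.16 and 0.38 against 2.497, and for CXCL5 1.23 and -0.20 against 3.47. An effect that passed in H2023 is not thereby shown to differ from the other lines, since limma called only the 3 genes above, SCARNA17 included.

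**Figure D5:**
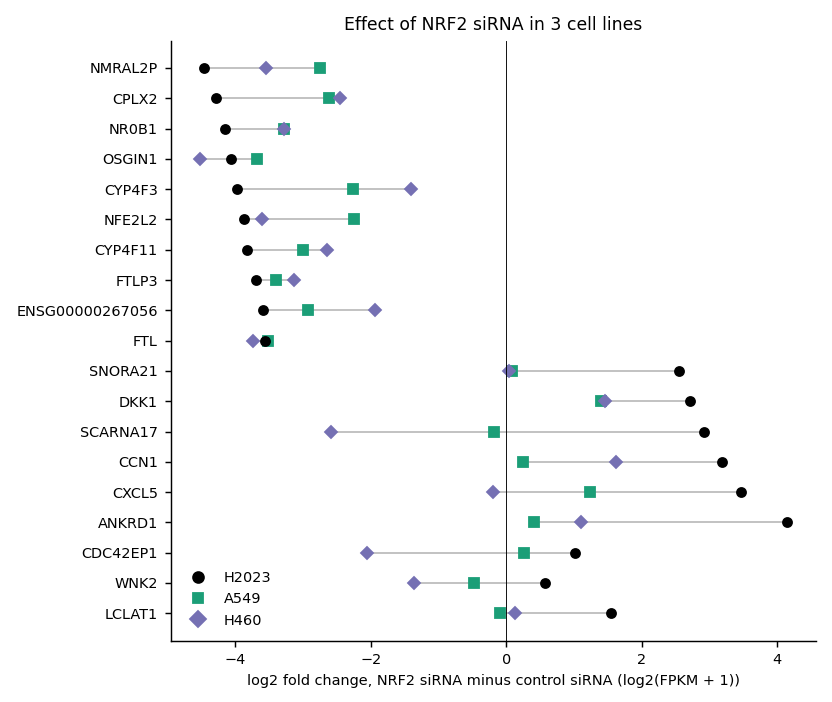
Log2 fold change on the log2(FPKM + 1) scale, NRF2 siRNA minus control siRNA, in H2023 (circles), A549 (squares) and H460 (diamonds) for the 19 genes among the most changed in H2023 or with the smallest p for the difference that were expressed in all 3 lines. The 10 genes that fell in H2023 lie left of 0 in all 3 lines, and for ANKRD1 the H2023 value of 4.14 stands apart from 0.42 and 1.10.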

How the data were processed

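RNA was measured in 12 libraries of 3 lung cancer cell lines, of which the 4 of H2023 (2 control siRNA, 2 NRF2 siRNA) were compared here. The library kit was strand-specific, after polyA selection in H2023, and reads were 80-base pairs. The FPKM values per gene were deposited by the authors, 1 file per library with 57815 genes. The submitters' processing notes name bcl2fastq 2.15.0, cutadapt 1.15, STAR 2.5.3a, SAMtools, Cuffnorm, HTSeq, DESeq2, R 3.2.0 and the builds hg19 and GRCh37.p13, whereas the study's methods name TopHat and Cufflinks. Which of them made the FPKM files could not be settled. The authors' tables of DESeq2 fold changes and p-values were not used.

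Values below 1e-06 FPKM (4959 in H2023) were set to 0, and symbols matched 96.1% of gene IDs. Genes at 1 FPKM or more in at least 2 of the 4 libraries were tested with limma 3.58.1 (R 4.3.3, mean-variance trend) on log2(FPKM + 1), and p-values were adjusted after Benjamini and Hochberg, calls being those under 0.05. The difference from A549 and H460 was a contrast in 1 limma fit of the 12 libraries, over genes at 1 FPKM or more in at least 2 libraries of each line. The change with each siRNA (1 library each) was taken from the mean of the control libraries, with no test. Genes named were NFE2L2, the 12 with the most negative and the 12 with the most positive change among calls whose groups did not overlap, members of the 21 lists and the 5 genes with the smallest p for the difference between lines. Others are said to be chosen after their values were seen. Some list members are not reported here. The lists were chosen with earlier results of these data known, and the experiment was too. Lists are described by counts and medians, with no set test. Same-numbered libraries were treated as unpaired, because the number marks no labelled batch and there were 2 pairs. Promoters come from RefSeq (GRCh38.p14). FPKM files hold no counts, so no counting interval is given and p-values rest on the spread of 2 libraries a group. Alternatives tried were no filter, a stricter filter, another pseudocount, no trend, other scalings, a fit of all libraries, a replicate block and leaving out each library.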

Additional observations from a re-analysis of the deposited data

Results flagged for a closer look

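Limma's test of the difference between the effect of NRF2 siRNA in H2023 and its mean effect in A549 and H460 called 3 genes. The differences were 3.39 for ANKRD1 (adjusted p = 0.00454), 1.92 for CDC42EP1 (adjusted p = 0.0241) and 4.30 for SCARNA17. That of SCARNA17 was 8.98 with a pseudocount of 0.1 and rests on libraries listed at 0 in H2023 and in H460, so no p is given for it. ANKRD1 was not called against H460 alone (adjusted p = 0.0735) or without control library 0 or 1 of H2023 (0.0563 and 0.0705). CDC42EP1 was not called against A549 alone (adjusted p = 0.325), without either control library of H2023 (0.146 and 0.207) or without siRNA 28 or siRNA 30 (0.05001 and 0.111).

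For some of the genes named here, both NRF2 siRNA libraries lay on one side of the control mean in H2023 and both on the opposite side in another line. SCARNA17, with both H460 NRF2 siRNA libraries listed at 0, was higher in H2023 and changed by -0.19 in A549 and by -2.59 in H460. In H460, CXCL5 changed by -0.20 and C3 by -1.28, against increases in H2023, and ID1 changed by 0.66 against a decrease in H2023. The difference of the H2023 effect from the mean of both other lines did not pass for CXCL5 (adjusted p = 0.165), C3 (adjusted p = 0.272) or ID1 (adjusted p = 0.416). That the effect had the opposite direction in H460 was not tested.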

How the results depend on the processing

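The counts of 82 lower and 46 higher genes in H2023 depended on the fit. With no filter on low values limma called 0 and 0 of 31160 genes (1409 lower and 2252 higher at an unadjusted p under 0.05), without the mean-variance trend 56 and 23, and in a fit of all 12 libraries 305 and 443. Leaving out 1 library gave between 0 and 585 lower and between 0 and 561 higher genes; the lone library of a group is then assumed to vary like the other group. With the replicate number as a block the counts were 298 and 413; deviations of same-numbered libraries correlated at 0.31 over 2 pairs, and in that fit the 1 call between lines was SCARNA17, whose values of 0 fix its difference, while ANKRD1 and CDC42EP1 were not called (adjusted p = 0.0612 and 0.0841). Lower genes made up 64.1% of calls, 40.8% in the fit of all libraries and 41.9% with the block. The stricter filter, the pseudocount of 0.1 and the scalings gave 64 to 88 lower and 33 to 58 higher genes. Of the 128 called genes, 96 were called with a pseudocount of 0.1, 78 without the trend, 120 without mitochondrial transcripts and 119 in the fit of all libraries; 110 were at 1 FPKM or more in all 4 libraries, and each of these was called under that stricter filter. All 128 called genes kept their sign under each of these alternatives in which they were tested. Their groups did not overlap, so the sign was fixed in advance, and only rescaling of the levels could have turned it. In the fit of all libraries CPLX2, SNORA21, SNORA51, C3, ID1, KRT80, MGAT5 and MT2A were not called, whereas 30 named genes not called from the 4 H2023 libraries were called; with the block 38 such genes were. Scaling without mitochondrial transcripts moved the median change of all genes from 0.02 to 0.10.

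With a minimum difference of 0.5 in place of 1, 702 genes were lower and 1182 higher with both siRNAs, and 529 were higher with a pseudocount of 0.1. Scalings chosen for these counts after seeing the data gave 191 and 208 lower and 337 and 247 higher genes. Genes whose effect differed between lines numbered 1 against A549 alone, 15 with a pseudocount of 0.1, 79 with genes at 1 FPKM in any 2 libraries, 5 without the trend and between 0 and 6 with 1 library left out.

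Among named genes that were not called, the sign turned when 1 library was left out, over the ranges -0.93 to 0.44 for CDKN1A, -0.026 to 0.20 for GSS, -0.33 to 0.0059 for GSTM3, -0.17 to 0.55 for MAFF, -0.55 to 0.22 for MAFK, -1.27 to 0.16 for MCM6, -0.21 to 0.040 for ME2, -0.033 to 0.32 for NOTCH2, -0.98 to 0.26 for PCNA, -0.94 to 0.18 for SPP1, -0.28 to 0.17 for TFRC, -0.99 to 0.74 for VIM and -0.094 to 0.49 for YAP1. Without mitochondrial transcripts ME2 was at 0.00014 and TFRC at 0.036. The cause of these changes was not tested.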
